A study of Luffa aegyptiaca with 4 samples.

Results

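Of the 48619 transcripts in an RNA-seq table of Luffa aegyptiaca, the sponge gourd, 102 were abundant in control and in heat-stressed samples and had nearly the same mean level in each. They were chosen by their measured values: a row not named as a lipoxygenase (LOX), a mean of at least 100 FPKM in control and at least 100 FPKM under heat, and a gap between the group means of log2(FPKM + 1) of under 0.25 in either direction. FPKM is a read level corrected for transcript length and for the number of fragments mapped in a library. The 102 are called near-equal transcripts here, and are described as candidates for reference transcripts. The 2 control samples received no treatment that the labels name, and the 2 heat samples are labelled as heat-stressed. Each sample is labelled as biological replicate 1 or 2, with no word on whether these were separate plants. The labels give the material only as tissue, with no organ, cultivar, plant age, temperature or duration. As these are bulk samples, fewer cells of a type and less RNA per cell cannot be told apart.

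A reference transcript is one whose level is taken as constant across treatments, so that other transcripts can be expressed relative to it in quantitative PCR. Transcripts of the cytoskeleton proteins actin and tubulin, of ubiquitin and of translation factors are often used in plants. Heat stress is a demanding setting for such a choice, because plants under heat raise chaperone transcripts through heat shock factors and reduce many others. The table pairs none of the 102 IDs with a gene name, so no member can be placed among these usual reference genes, and the tissue could not be checked against organ markers. No sequence was at hand for these transcripts.

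The 102 near-equal transcripts were 28.7% of the 355 transcripts that had at least 100 FPKM in both groups, and 0 LOX rows reached that minimum in both groups. Their mean over the 4 libraries ran from 105 to 1889 FPKM, with a median of 152 FPKM. The median member was at 151 FPKM in control replicate 1, 155 in control replicate 2, 158 in heat replicate 1 and 142 in heat replicate 2. The lowest and highest of these medians were those of the 2 heat libraries. Of the members, 53 had the higher mean under heat and 49 the higher mean in control, around a median difference of 0.0038 on the log2 scale. These differences were bounded by the rule and are given as a description.

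**Figure D1:**
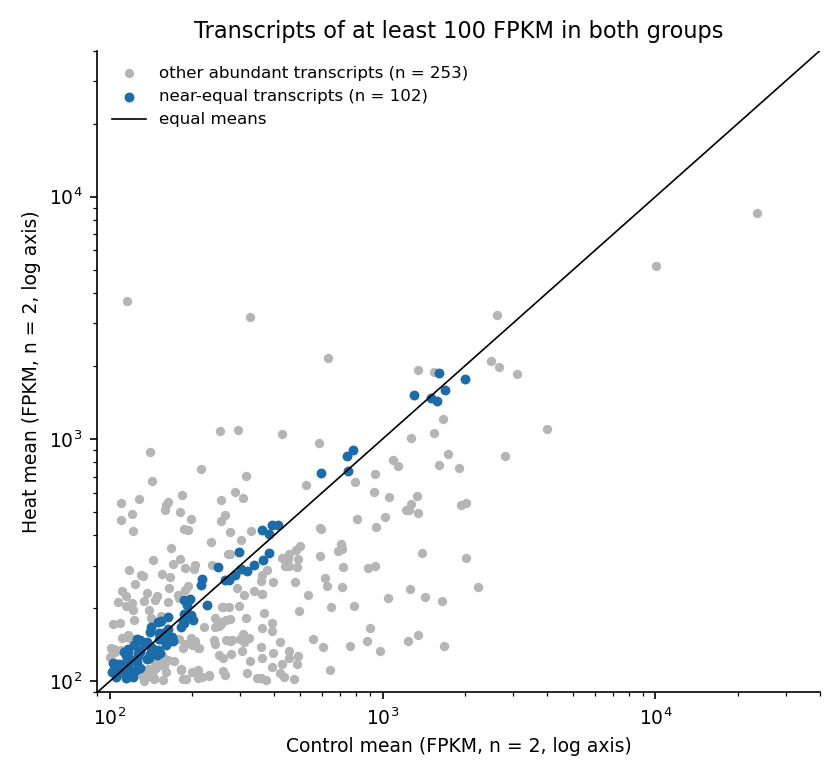
Each point is 1 transcript of at least 100 FPKM in both groups, with its control mean on the x axis and its heat mean on the y axis (FPKM, n = 2 libraries each, log axes). The 102 near-equal transcripts (blue) lie along the line of equal means over the whole range of their levels, and the other 253 (grey) lie on both sides of it, more of them below.

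The share of near-equal transcripts differed with abundance. Between 100 and 200 FPKM, 73 of 146 abundant transcripts (50%) were members. Between 200 and 500 FPKM it was 19 of 136 (14%), between 500 and 1000 FPKM 4 of 44 (9.09%), and from 1000 FPKM upwards 6 of 29 (20.7%). The minimum applied to both groups, so a transcript with a mean just above 100 FPKM could enter the 355 only with a small difference, and the first share is raised by construction. Together the members took 4.87% of summed FPKM in control replicate 1, 5.19% in control replicate 2, 5.44% in heat replicate 1 and 4.55% in heat replicate 2. The control shares lay between the heat shares. The other 253 abundant transcripts took 28.0% and 29.1% of it in control libraries but 19.8% and 17.3% in heat libraries.

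The most abundant members were near-equal in their means but not in their libraries. Luffa_aegyptiaca13466.t01 had 1905 FPKM in control replicate 1, 2105 in control replicate 2, 2096 in heat replicate 1 and 1448 in heat replicate 2. Luffa_aegyptiaca37962.t01 had 1438 and 1776 FPKM in the control libraries, against 2303 and 1449 FPKM in the heat libraries. Luffa_aegyptiaca44725.t01 had 1509 and 1875 FPKM in the control libraries, against 1970 and 1220 FPKM in the heat libraries. In each of these 3 transcripts control replicate 2 was above control replicate 1, heat replicate 2 was below heat replicate 1, and the groups overlapped. The log2 differences of their means, heat minus control, were -0.20, 0.19 and -0.12, with standard errors of 0.28, 0.31 and 0.31 from the fit of all transcripts. The same order of replicates held in all 6 members above 1000 FPKM, whose highest and lowest libraries differed by 0.50 to 0.69 on the log2 scale.

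The narrowest members lay near the abundance minimum. Luffa_aegyptiaca18541.t01 had 127 and 131 FPKM in the control libraries, against 131 and 133 FPKM in the heat libraries (a range of 0.06 on the log2 scale over the 4 libraries). Luffa_aegyptiaca19174.t01 had 119 and 113 FPKM in the control libraries, against 112 and 116 FPKM in the heat libraries (a range of 0.08). Luffa_aegyptiaca26022.t01 had 122 and 131 FPKM in the control libraries, against 130 and 131 FPKM in the heat libraries (a range of 0.10). Heat and control libraries overlapped in 19174 and 26022, and in 18541 the lower heat library was above the higher control library by less than 1 FPKM. At the other end, Luffa_aegyptiaca04561.t01 had the largest difference between replicates in either group, with 490 and 705 FPKM in the control libraries, against 924 and 517 FPKM in the heat libraries, with a range of 0.92. Its means were 597 ± 152 FPKM in control and 721 ± 288 FPKM under heat (SD, n = 2 per group).

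**Figure D2:**
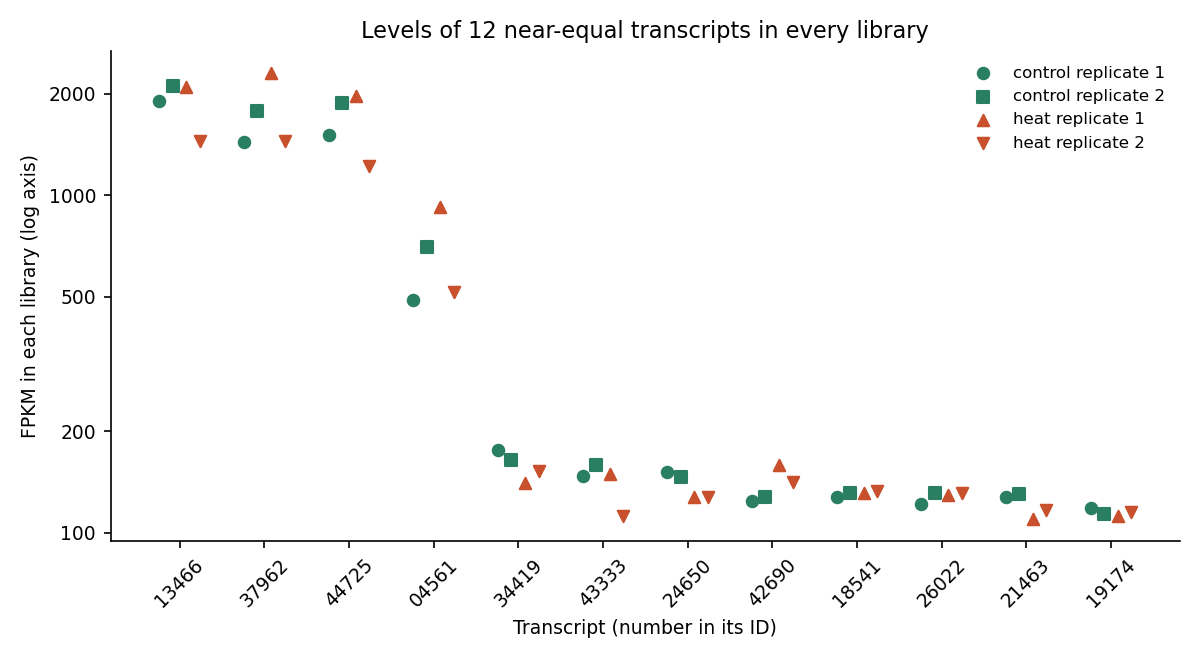
FPKM in each of the 4 libraries (log y axis) for 12 near-equal transcripts named by the number in their IDs, in order of mean level; green marks are controls and red marks heat libraries. The 4 most abundant of them show the heat replicates far apart, as in 04561 at 924 and 517 FPKM, while the 4 marks of 18541 lie between 127 and 133 FPKM.

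The edges of the rule show what it separated. Just inside on the higher side, Luffa_aegyptiaca42690.t01 had 124 and 128 FPKM in the control libraries, against 158 and 141 FPKM in the heat libraries (a difference of 0.247 in mean log2). Just outside, Luffa_aegyptiaca37952.t01 had 1555 and 1533 FPKM in the control libraries, against 2312 and 1459 FPKM in the heat libraries (a difference of 0.2505). Its ID lies 10 numbers from that of member 37962, whose heat values, 2303 and 1449 FPKM, were close to its own. On the lower side the nearest inside was Luffa_aegyptiaca43333.t01, with 147 and 159 FPKM in the control libraries, against 149 and 112 FPKM in the heat libraries (a difference of -0.24). The nearest outside was Luffa_aegyptiaca30341.t01, with 187 and 172 FPKM in the control libraries, against 156 and 143 FPKM in the heat libraries (a difference of -0.26). The groups did not overlap in 42690 and 30341, and overlapped in 37952 and 43333.

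The rule used group means, so the difference between replicates is a measure that it did not use directly. The median absolute difference between replicates was 0.09 in control and 0.28 under heat on the log2 scale, and the heat difference was the larger in 82 of 102 members. The heat median was 0.33 after median-of-ratios rescaling, 0.21 at equal summed FPKM and 0.18 after quantile normalization, while the control median stayed between 0.08 and 0.09. The heat difference was then the larger in 88, 80 and 72 members. A gap of at least 0.25, the width of the rule itself, separated the control replicates in 10 members and the heat replicates in 54. The median coefficient of variation was 4.63% in control and 13.5% under heat (n = 2 libraries each). The other 253 abundant transcripts had like values, with median absolute differences of 0.09 in control and 0.28 under heat. Over the 18186 transcripts that were tested, those whose mean reached 1 FPKM, the medians were 0.12 and 0.21. With 1 pair of libraries per group, a difference in spread between the groups could not be tested over samples.

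The heat replicates differed mostly in one direction. Heat replicate 1 was above heat replicate 2 in 82 of 102 members (80.4%) and in 221 of the other 253 abundant transcripts (87.4%). Replicate 2 minus replicate 1 under heat had a median of -0.26 over the members and 0.02 over all 18186 transcripts. At equal summed FPKM the median over the members was -0.14, with heat replicate 1 above in 68 of 102, and after quantile normalization it was -0.09, with 66 of 102. It was larger after median-of-ratios and after upper-quartile rescaling, at -0.32 in each case, with heat replicate 1 above in 90 of 102. Among members the median of replicate 2 minus replicate 1 under heat was -0.18 at 100 to 200 FPKM, -0.39 at 200 to 500 FPKM, -0.24 at 500 to 1000 FPKM and -0.68 from 1000 FPKM upwards. Heat replicate 1 was the highest of the 4 libraries in 62 members and heat replicate 2 the lowest in 49. Control replicate 2 was above control replicate 1 in 63 members, and 56 (54.9%) had both control replicate 2 and heat replicate 1 as the higher library, against 142 of the other 253 (56.1%). Across the 102 members Pearson's r between the control and the heat difference was -0.62, and it was -0.55 across the 96 members under 1000 FPKM and -0.55 across the other 253 abundant transcripts. Over all 18186 transcripts it was -0.07. These correlations are across transcripts that share the same 4 libraries, and describe these libraries only.

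**Figure D3:**
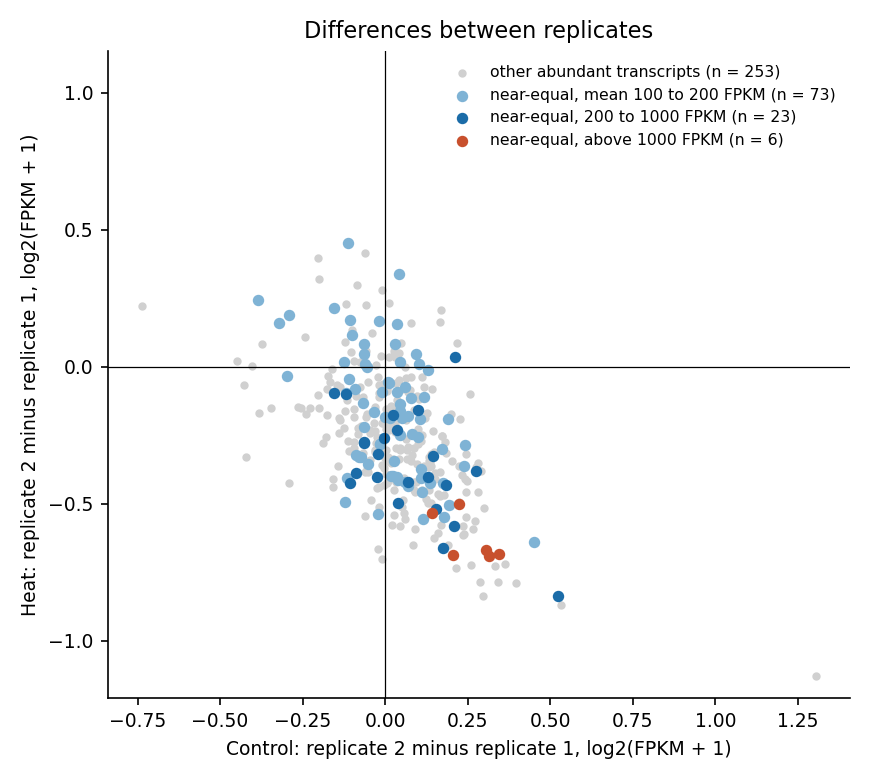
Each point is 1 transcript, with replicate 2 minus replicate 1 in control on the x axis and under heat on the y axis, on the log2(FPKM + 1) scale; grey points are the other 253 abundant transcripts. Most near-equal transcripts lie below 0 on the heat axis, and the 6 above 1000 FPKM (red) lie together at the lower right, with a median heat difference of -0.68.

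Single libraries differed by more than the means. Taken 1 control and 1 heat library at a time, 33 members differed by under 0.25 in all 4 such pairs, 26 in 3, 36 in 2 and 7 in 1. The number under 0.25 was 68 for control replicate 1 with heat replicate 1 and 64 for control replicate 2 with heat replicate 2. It was 78 for control replicate 1 with heat replicate 2 and 79 for control replicate 2 with heat replicate 1. All 4 libraries lay within 0.25 of each other in 29 members, 27 of which had a mean of 100 to 200 FPKM, and within 0.50 in 85. With either heat library left out, the rule took different transcripts: 87 without heat replicate 1 and 104 without heat replicate 2, of which 69 and 70 were among the 102. Without control replicate 1 it took 100, of which 92 were among them, and without control replicate 2 it took 94, of which 87 were.

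The fit of all transcripts called 73.4% of 18186 transcripts different between heat and control (limma, adjusted p under 0.05), and 0 of the 102 members. At an unadjusted p under 0.05 the number was also 0 of 102, and the smallest adjusted p was 0.115 (limma). The rule and the fit used the same contrast, so nothing is read from this count. The heat and control libraries did not overlap in 30 members, 16 higher and 14 lower under heat, against 87.1% of all tested transcripts. Nothing is read either from the member counts of the fits that left out a library, since these too used the contrast of the rule. With heat replicate 1 left out, 13 members passed, 12 of them lower, with 70.0% of all tested transcripts called, and with heat replicate 2 left out 10 passed, all higher, with 70.4% called. These members were chosen on the means of all 4 libraries, and their median difference moved to -0.10 and 0.11 when 1 of the heat libraries was left out. A difference below the threshold does not show that levels were equal, so the interval is given too. The half-width of the 95% confidence interval of the log2 difference had a median of 0.37 and was at least 0.28. The interval lay within 0.25 of no change in 0 members, within 0.50 in 50 and within 1 in 101. The exception was Luffa_aegyptiaca04561.t01, with an interval from -0.57 to 1.04.

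Rescaling the libraries by the median of ratios moved the members together. This scaling divides each library by its median ratio to the mean library over the 19393 transcripts above 0 in every library. The divisors were 1.11 and 1.08 for the control libraries but 0.901 and 0.943 for the heat libraries, which raises heat over control by 0.25 on the log2 scale, a shift as wide as the rule. After it, 102 of 102 members had the higher mean under heat, by 0.0026 to 0.49 with a median of 0.25, and the median of all tested transcripts moved from -0.20 to 0.02. The lowest difference of a member as deposited was -0.244 and the shift was 0.248, so the higher direction followed from the rule and the shift. The direction of the member counts that follow was fixed in the same way. The groups then did not overlap in 59 members, all higher under heat, where 44.2% of all tested transcripts had every heat library above every control. The fit called 9 members higher and 0 lower (limma, adjusted p from 0.0214 to 0.0499), where it called 37.0% of all tested transcripts higher.

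Under median-of-ratios rescaling the same rule again took 102 transcripts, but 49 of them were shared with the first list, which is 48.0% of each list. Of the 53 members lost, 51 had the higher mean under heat as deposited, and 51 had reached a difference of 0.25. The 53 transcripts that entered had the lower mean under heat as deposited. The narrowest members changed as well. Luffa_aegyptiaca24650.t01, with 152 and 146 FPKM in the control libraries, against 128 and 128 FPKM in the heat libraries as deposited, stood at 137, 135, 142 and 136 in the same order after rescaling. Luffa_aegyptiaca34419.t01 went from 176, 164, 141 and 153 FPKM to 158, 152, 156 and 162, and Luffa_aegyptiaca21463.t01 from 128, 130, 110 and 116 FPKM to 115, 121, 122 and 123. In these 3 transcripts the range fell to between 0.07 and 0.10 on the log2 scale, while that of 18541 rose from 0.06 to 0.34. Of the 10 narrowest members as deposited, 1 was among the 10 narrowest after rescaling. The number with all 4 libraries within 0.25 was 12, against 29 as deposited. The members were chosen for small differences on the deposited scale, so this fall was favoured by the choice. Among the other 253 abundant transcripts the number rose from 0 to 7, and among all 355 it went from 29 to 19.

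**Figure D4:**
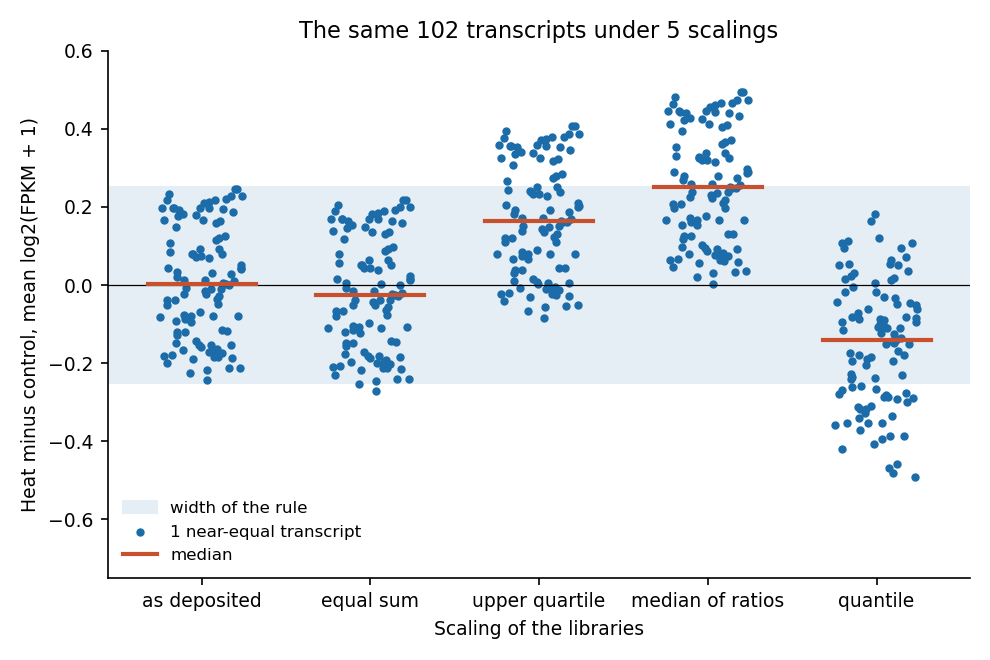
Heat minus control difference in mean log2(FPKM + 1) of the same 102 transcripts (1 point each, spread sideways for visibility) under 5 scalings of the libraries; red bars are medians and the band is the width of the rule, 0.25 on each side of 0. The median lies at 0.0038 as deposited, at 0.25 after median-of-ratios rescaling and at -0.14 after quantile normalization.

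Other scalings moved the members by different amounts and in different directions. Upper-quartile rescaling gave a median difference of 0.16, with 85 of 102 members higher under heat, and 69 members still met the rule. Rescaling to equal summed FPKM gave -0.02, with 46 higher, and 100 members met the rule. Quantile normalization gave -0.14, with 21 higher and 81 lower, and 69 members met the rule. The fit after quantile normalization called 21 members lower, where it called 37.6% of all tested transcripts lower. Across the values as deposited and these 4 scalings, 16 members met the rule every time. Of these, 2 also had all 4 libraries within 0.25 of each other both as deposited and after median-of-ratios rescaling. One is 19174, at 107, 105, 124 and 123 in the order above after median-of-ratios rescaling. Its heat libraries were then above its control libraries, with a difference of 0.22. The other, Luffa_aegyptiaca45447.t01, was singled out after its values were seen. It stood at 117, 112, 100 and 106 FPKM as deposited and at 106, 104, 111 and 113 after rescaling. Its groups did not overlap in either case, and the direction reversed, from a difference of -0.15 as deposited to 0.10. After quantile normalization its difference was -0.24.

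The ratio of 1 transcript to another within a library is not touched by dividing libraries by a factor. The standard deviation over the 4 libraries of the log2 ratio of a member to another member, averaged over the other 101, ran from 0.14 to 0.36 with a median of 0.18. By this measure Luffa_aegyptiaca04561.t01 had the widest spread of the 102. The narrowest was Luffa_aegyptiaca19082.t01, also singled out after its values were seen, with 112 and 116 FPKM in the control libraries, against 121 and 102 FPKM in the heat libraries. Its heat replicate 1 was the highest library and its heat replicate 2 the lowest, as was common among the members. The 3 members of narrowest range as deposited, 18541, 19174 and 26022, ranked 34, 52 and 35 of 102 by the ratio measure. The 3 of narrowest range after median-of-ratios rescaling, 24650, 34419 and 21463, ranked 80, 89 and 86. Luffa_aegyptiaca45447.t01 ranked 78. Of the 10 members of narrowest range as deposited, 3 were among the 10 narrowest by ratio. Of the 10 of narrowest range after median-of-ratios rescaling, 0 were. This measure takes the members themselves as the yardstick, so it also depends on which transcripts were chosen.

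Near-equal transcripts and the other abundant transcripts had abundant neighbours by ID number in like shares. Of the 102, 2 had another member within 10 ID numbers and 11 within 50. With all 355 abundant transcripts counted as neighbours, 16 members (15.7%) had one within 10 numbers and 59 (57.8%) within 50. The corresponding numbers were 46 (18.2%) and 160 (63.2%) for the other 253. Whether the numbers follow the order of genes along the genome is not given by the table, and the positions of the transcripts were not analysed here.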

How the data were processed

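RNA was sequenced from 2 control and 2 heat-stressed samples. The authors deposited 1 table of FPKM values, 1 column per library. Reads were handled with StringTie 2.0, HISAT2 2.2.1 and fastp 0.20.1, per the submitters' processing notes; the sources used here name no genome build, annotation, strand setting or rule for reads with several matches. FPKM are not counts and read depth is unknown, so no counting interval is given; summed FPKM ran from 551921 to 599611.

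Values were analysed as log2(FPKM + 1). A model of group alone was fitted with limma 3.58.1 in R 4.3.3 to the 18186 transcripts whose mean reached 1 FPKM, with moderation along a mean-variance trend, two-sided tests and Benjamini-Hochberg adjustment over all of them, at a threshold of 0.05. The fit was tested on simulated data. Its p-values set the group difference against the spread between these libraries, moderated over all transcripts. The labels name biological replicates but do not say whether they were separate plants, so part of this spread may be technical.

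The members, lists and named-transcript rule were chosen with earlier results of these data known. The rule named the 3 most abundant members, the 3 of smallest range as deposited and the 3 after median-of-ratios rescaling. It also named the member with the largest replicate difference in each group, and the transcripts nearest each edge of the rule. Lists of usual reference genes, ribosomal, proteasome and heat shock proteins and organ markers could not be matched to the unnamed rows. Alternatives covered scaling, pseudocount, filters, moderation without a trend, a replicate block, the rule's limits and leaving out each library. No group exceeds 2 samples, so no single library was tested as an outlier.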

Additional observations from a re-analysis of the deposited data

How the results depend on the processing

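The list depends on its limits: it held 270 transcripts with a minimum of 50 FPKM, 27 with a minimum of 200 FPKM, 44 with a width of 0.1 and 174 with a width of 0.5, against 102. The median difference of the members was 0.25 after median-of-ratios and 0.16 after upper-quartile rescaling, against 0.0038, and the members with all libraries within 0.25 numbered 12 and 16, against 29. The members were chosen on the deposited scale, so these counts do not say which scaling gives steadier transcripts. Members past the threshold (limma) numbered 9 after median-of-ratios rescaling, 3 after upper-quartile rescaling and 21 after quantile normalization, against 0. Leaving out 1 library at a time gave 0 to 13 such members, 87 to 104 transcripts by the rule, and median differences from -0.10 to 0.11; 1 group then holds a single library, assumed to vary like the other. The cause of these changes, beyond the shift that each scaling applies by construction, was not tested. Calls over all transcripts lay between 9687 and 14924, against 13352, and the higher share of calls, 42.1% as deposited, was 50.5% after median-of-ratios rescaling. A replicate block left 13149 calls and 0 members past the threshold. The replicate differences in control and under heat had r = -0.07 across all tested transcripts and -0.62 across the members. The labels do not say that the replicate numbers pair. Under the 5 alternatives run for it, the replicate spread of the members was 0.08 to 0.09 in control and 0.18 to 0.33 under heat. As deposited it was 0.09 and 0.28. Of 108 differences of the 12 named members under alternatives, 84 moved by less than the replicate SD and 24 by more, all of the latter under another scaling. With 2 libraries per group, leaving out a library cannot move a difference past this SD. Only the scalings and the pseudocount could therefore add to the 24, and nothing is read from the rest. The member with the widest replicates, 04561, went from 0.23 to -0.18 without heat replicate 1 and to 0.65 without heat replicate 2. The limit that read depth sets is unknown.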
